A study of Mus musculus with 8 samples.

Results

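The smallest islands of anti-Brdt ChIP-seq signal in round spermatids that lack the first bromodomain of Brdt are described here. An island is a stretch of genome in which ChIP reads cluster above a control library, built by the authors from windows of 200 bases. The members were chosen by their length in the deposited list of the BD1del round spermatid library, which is itself a product of the ChIP and control reads: every island of exactly 200 bases, a single window, on chromosomes 1 to 19. They number 75062 of the 190782 autosomal islands of that list, and of 393689 autosomal islands in all 4 lists of the study. Their reads, and their share of that list, are therefore descriptions and have no test. Their overlap with the other 3 lists was not used in the choice.

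Brdt is a testis-specific protein of the BET family. Its bromodomains bind acetylated lysines of histones, the first of them acetylated histone H4. Male mice without this domain are known to be sterile, with defects of spermatid chromatin. Round spermatids are the haploid cells that follow meiosis, before their histones are replaced by protamines, and spermatocytes are the meiotic cells that precede them.

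The study holds 8 samples, an anti-Brdt ChIP and an input library for each of 4 kinds of cell. These are meiotic spermatocytes and post-meiotic round spermatids, each from wild-type males and from males whose Brdt lacks its first bromodomain (Brdt BD1del). Cells of both genotypes were separated on a BSA gradient and pooled by stage. Wild-type cells came from C57BL/6 mice, pooled from 10 mice, with chromatin cut by MNase to about 200 bp. How many BD1del mice were pooled, their strain and how their chromatin was cut are not given in the sources used here, nor is the age of any mouse. The lists hold no expression values, so the labelled cell types were not checked against markers. Each kind of cell had 1 ChIP library, so replicate error is unknown and no comparison between libraries has a test. Each interval is an exact 95% interval by the Clopper-Pearson method and includes no error other than that of counting. The wild-type lists are labelled as made from F3 tags and the BD1del lists as made from F3 tags paired with F5 tags, so genotype and read set cannot be told apart. In pooled cells, a lower share of cells with signal and less signal per cell cannot be told apart either.

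Single windows were the most common form of island in BD1del round spermatids. They made up 39.3% (39.1 to 39.6%) of the autosomal list, against 8.78% (8.61 to 8.96%) in BD1del spermatocytes, 7.70% (7.50 to 7.90%) in wild-type round spermatids and 2.89% (2.70 to 3.08%) in wild-type spermatocytes. In number these were 75062, 9256, 5235 and 852 islands. Within the BD1del round spermatid list they held 24.2% of the ChIP reads and 10.2% of the control reads, and they covered 11.0% of its 136.6 Mb. The lowest ChIP count at which a single window was an island differed between lists, at 17 reads in both round spermatid lists, 21 in BD1del spermatocytes and 26 in wild-type spermatocytes. With only islands of at least 26 ChIP reads in every list, a limit set after the data were seen, the share fell to 7.91% in BD1del round spermatids. It was then 2.54% in BD1del spermatocytes, 1.23% in wild-type round spermatids and 2.89% in wild-type spermatocytes. This limit is a count of raw reads and is not scaled to library depth.

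The lengths of BD1del round spermatid islands fell off steeply after the first window. Islands of 400 bases, just outside the rule, numbered 22567 (11.8% of the list), and islands of 600, 800 and 1000 bases were 9.66%, 9.78% and 10.1%. At 1200 bases the share dropped to 5.40%. Windows are joined across gaps of up to 600 bases, and 1000 bases is the longest island that a pair of windows can form. A smaller drop from 1000 to 1200 bases was seen in BD1del spermatocytes (11.0% to 9.18%) and in wild-type round spermatids (8.82% to 8.13%). In the wild-type spermatocyte list no such step was seen, with 5.06% at 1000 and 5.31% at 1200 bases.

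**Figure D1:**
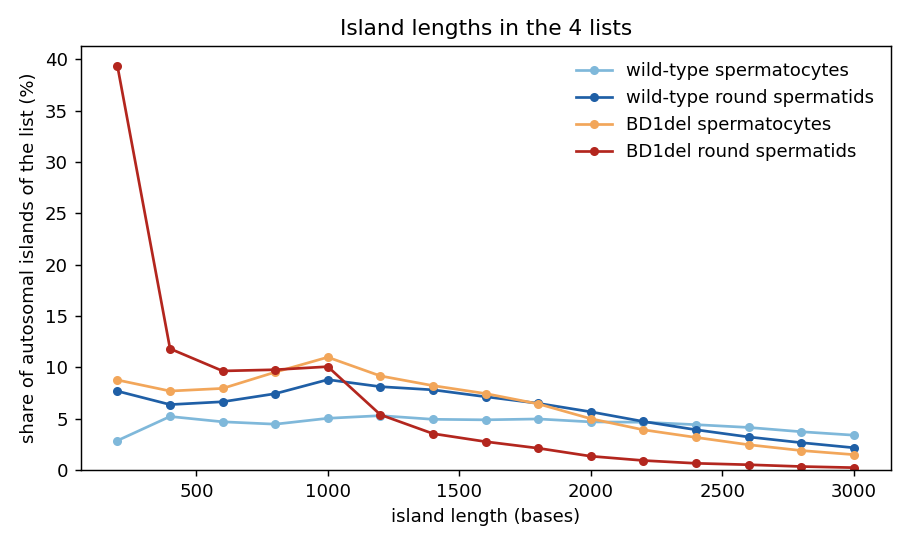
Share of autosomal islands (y axis, percent) by island length from 200 to 3000 bases (x axis) in each of the 4 lists, 1 line per list. BD1del round spermatids have 39.3% of islands at 200 bases, and the other 3 lists lie between 2.89 and 8.78% there.

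The members held few ChIP reads, most of them close to the lowest count in the list. Their ChIP counts ran from 17 to 261 reads, with a median of 20 and quartiles of 18 and 22. Of the members, 14333 (19.1%) had exactly 17 reads, 12098 had 18, 10146 had 19 and 8413 had 20, so that 59.9% lay within 3 reads of the floor. At least 30 reads were found in 3105 (4.14%) and at least 50 in 84 (0.112%). The deposited false discovery rate was nonetheless low, with a median of 4.46e-17, and it was at most 1e-10 in 91.4% of the members.

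Per kb, the control reads of the members were close to those of islands up to 5000 bases in the same list. Their median was 9 control reads, with quartiles of 6 and 12 and a maximum of 140, and 97.2% had 20 or fewer. Scaling in the deposited folds puts the control library at 5.45 times the depth of the ChIP library, so 9 control reads correspond to 1.65 reads at the depth of the ChIP library, against a median of 20 ChIP reads. Per kb of island the median control count was 45 in members, 45 in islands of 400 bases, 42 in islands of 1000 bases and 44.2 in islands of 2200 to 5000 bases, and it rose to 63.0 in the 659 islands over 5000 bases. Per kb the median ChIP count fell over the first 4 of these classes, from 100 to 67.5, 32 and 24.2 reads. The deposited fold, which divides ChIP reads by control reads scaled to the same depth, had a median of 13.1 in members and 8.56 in islands of 400 bases. The lowest ChIP count was 17 in members and 20 in islands of 400 bases, so members start from a higher floor per kb. How far this floor sets the differences in ChIP reads per kb and in fold was not tested.

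Over most of its range the ChIP count of a member did not follow its control count. For control counts from 0 to 20 the median ChIP count was 19 or 20 at every value, and the Spearman correlation over the 75062 members was 0.018, as a description of 1 ChIP and 1 control library. Members with at least 30 ChIP reads had a median of 9 control reads, as all members did. At the extremes both counts were raised. The 303 members with 30 or more control reads had a median of 25 ChIP reads. The 84 members with 50 or more ChIP reads had a median of 15 control reads. The same correlation was 0.052 over the 200-base islands of BD1del spermatocytes, 0.23 in wild-type round spermatids and 0.44 in wild-type spermatocytes. No control reads at all were found in 868 members (1.16%, 1.08 to 1.24%). For these the authors' list uses 0.25 control reads, so the highest folds of the list, up to 915, are not measured ratios.

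The 200-base islands of the other lists had partly different reads. BD1del spermatocytes had medians of 23 ChIP and 10 control reads and a median fold of 13.4. Wild-type round spermatids had medians of 19 ChIP and 6 control reads and a median fold of 11.4, with 3.53% of islands free of control reads. Their upper control counts were higher than in the members, with a 95th percentile of 36 against 18 reads. Wild-type spermatocytes had medians of 32 ChIP and 21 control reads and a median fold of 2.77. Folds of different lists are not directly comparable, because depth sets which folds can pass. The depth of control over ChIP was 1.79 in wild-type spermatocytes, 3.79 in the wild-type round spermatid list and 5.64 for BD1del spermatocytes.

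**Figure D2:**
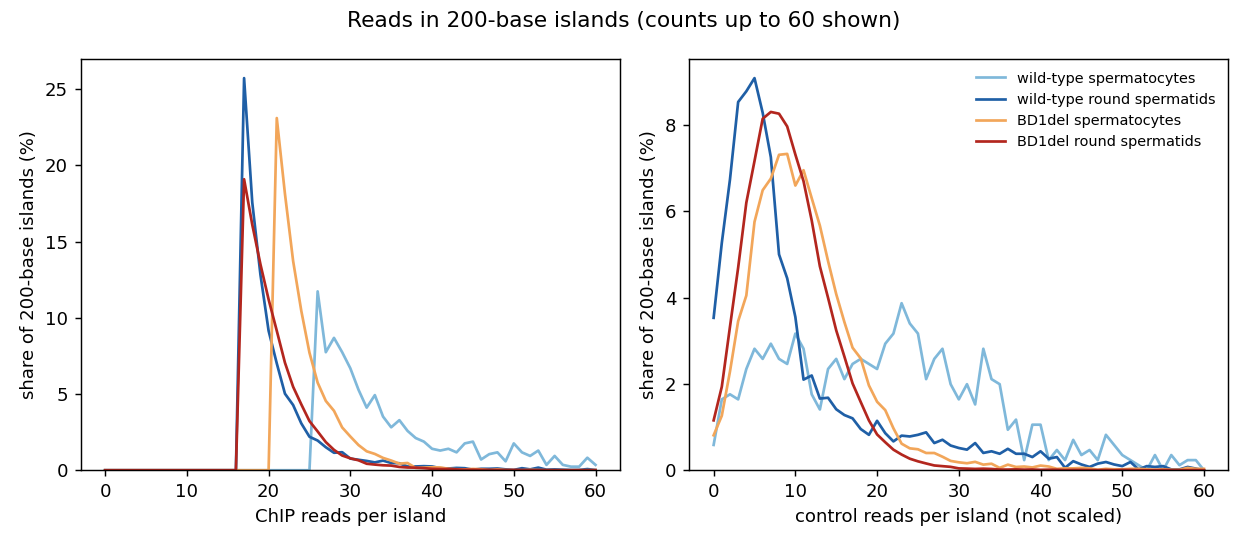
Share of 200-base islands (y axis, percent) by number of ChIP reads (left) and of unscaled control reads (right), 1 line per list. ChIP counts start at 17, 17, 21 and 26 reads in the lists and fall off at once, while the control counts of BD1del round spermatids have a median of 9.

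Typical and extreme members illustrate this range, in mm9 coordinates. The most common combination, in 1219 members, was 17 ChIP and 6 control reads, as at chr1:5924601-5924800, chr2:3522801-3523000 and chr3:3131801-3132000, none of which met an island of another list. The member with most ChIP reads was chr1:12634801-12635000, with 261 ChIP and 89 control reads. It met an island of every other list, and in BD1del spermatocytes the same single window was an island with 249 ChIP and 23 control reads. The next, chr9:88448001-88448200 with 199 ChIP and 90 control reads and chr2:178675601-178675800 with 138 and 43, met islands of BD1del spermatocytes and no wild-type island.

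Among members with at least 5 control reads the highest folds were 55.6 and 54.5. They were found at chr3:104138001-104138200 and chr17:80430801-80431000, each with 51 ChIP and 5 control reads, and at chr6:31349601-31349800 with 50 and 5. Of these 3 only the window on chromosome 17 met another list, an island of 1000 bases in wild-type round spermatids with a fold of 5.68. The member with most control reads, chr14:108530201-108530400, had 132 ChIP and 140 control reads, and an island was present there in every list. The 2 members that followed in control reads, chr2:41751601-41751800 with 123 and chr7:113669401-113669600 with 121, also met all 3 other lists. Genes and sequence at these windows were not analysed here.

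The members were spread over all autosomes at a fairly even density. They averaged 31.1 per Mb over a span of 2415 Mb, and the 19 chromosomes ranged from 27.0 per Mb on chromosome 1 to 36.6 on chromosome 11. Median reads barely moved between chromosomes, at 19 or 20 ChIP and 8 or 9 control reads on each. Their share of the list was lowest on chromosome 1, at 27.9%, where longer islands were densest (69.7 per Mb), and highest on chromosome 8, at 44.4%, where longer islands were sparsest (38.1 per Mb). The first 5 Mb of the chromosomes' spans held 27.8 members per Mb, the last 5 Mb held 32.7 and the rest held 31.1.

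Over 2391 whole bins of 1 Mb the median was 31 members, with quartiles of 26 and 36 and a maximum of 57. The variance between bins was 2.13 times the mean, below the 3.55 of longer islands of the same list. The much sparser 200-base islands of the other lists had ratios of 1.29 (wild-type spermatocytes), 1.10 (wild-type round spermatids) and 1.07 (BD1del spermatocytes). These lists left 72.5%, 12.3% and 3.26% of the bins without any 200-base island, against 0.376% (9 bins) in BD1del round spermatids. The richest bins started at 21 Mb on chromosome 9 with 57 members, at 93 and 97 Mb on chromosome 15 with 55 each, at 126 Mb on chromosome 6 with 54 and at 118 Mb on chromosome 11 with 54. In these 5 bins the other lists had 0 to 6 islands of 200 bases.

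Bins rich in members were only weakly those rich in other islands. Across the 2391 bins the Spearman correlation of the member count was 0.19 with longer islands of the same list. It was 0.17 with 200-base islands of BD1del spermatocytes, 0.051 with those of wild-type round spermatids and -0.012 with those of wild-type spermatocytes. With longer islands it was 0.13 for BD1del spermatocytes, -0.18 for wild-type round spermatids and -0.30 for wild-type spermatocytes. Neighbouring bins are not independent, and bins with little usable sequence lower all counts together.

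**Figure D3:**
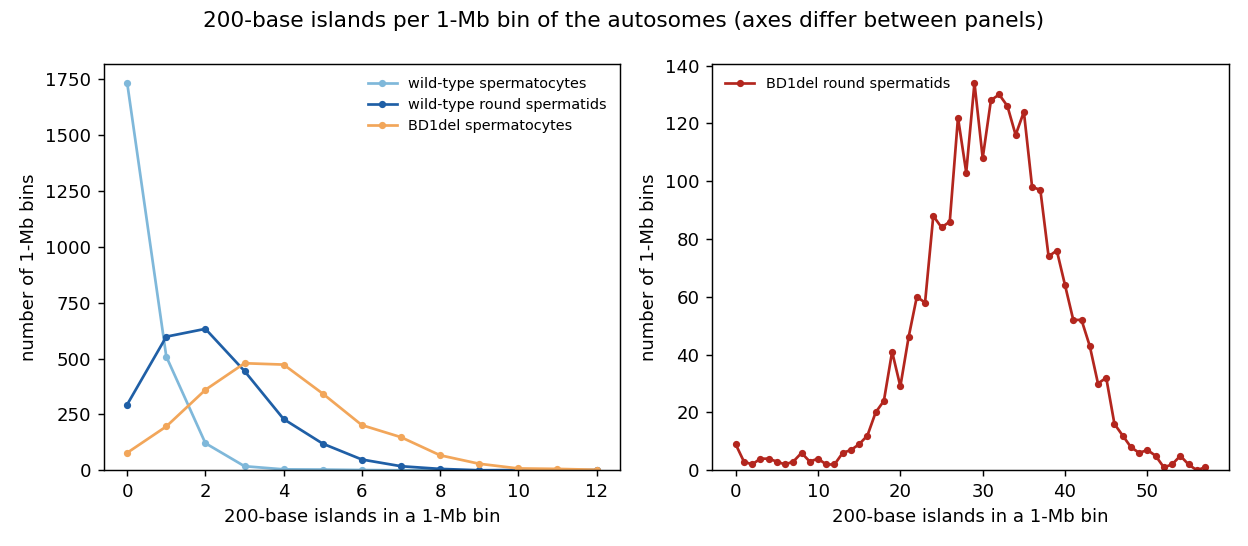
Number of 1-Mb bins (y axis) by how many 200-base islands they hold (x axis), for the other 3 lists (left) and for BD1del round spermatids (right), with different axes. The BD1del round spermatid bins centre on a median of 31 islands, and the medians of the other lists are 0, 2 and 4.

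Members were sparse in the blocks of the genome that wild-type islands fill. On chromosome 14 from 3 to 9 Mb there were 24 members, 4 per Mb, against 30.3 per Mb on the rest of the chromosome, whereas longer islands of the same list were denser there (53.5 against 42.0 per Mb). The bins of this block that start at 3, 6 and 7 Mb held 1 member each and were covered to 67.9%, 74.8% and 66.2% in wild-type spermatocytes. On chromosome 1 from 3 to 24 Mb members stood at 22.5 per Mb and on the rest of the chromosome at 27.7. Over the 40 whole bins that any list covered to at least 20%, members averaged 16.2 per Mb, against 31.4 in the other 2351 bins. Over all bins, in contrast, the median member count was 28 in the fifth of bins with fewest longer islands of the same list and 32 in the fifth with most. The blocks on chromosomes 1 and 14 had similar shares of bases in islands of that list, 13.8% and 13.0%. Of the 9 bins without members, 8 had no island in any list, among them the 4 bins from 40 to 44 Mb on chromosome 7 and the bin at 86 Mb on chromosome 1. The other, at 20 Mb on chromosome 8, held 2 longer islands.

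The spacing of members was wide. The median gap between consecutive members was 21.4 kb, with quartiles of 9.2 and 42.8 kb. The smallest gap was 800 bases, the least that can remain once gaps of up to 600 are closed. Gaps of at most 1000 bases were 1297 (1.73%) and gaps of at most 10 kb were 27.4%. In the other lists the median gap between 200-base islands was 178.8 kb in BD1del spermatocytes, 307.5 kb in wild-type round spermatids and 1562 kb in wild-type spermatocytes. Between all consecutive BD1del round spermatid islands the median was 8.0 kb.

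Single and longer islands alternated with little sorting along the chromosomes. After a member the next island of the list was again a member in 40.4% of cases, and after a longer island it was a member in 38.7%. A longer island lay within 2 kb of 15.2% of the members, and the median distance to the nearest was 7.2 kb. The longest run of members with no longer island between them was 12, over 225.4 kb at chr8:5504401-5729800, a run singled out after its values were seen. In the 200-base islands of the other lists the same pair of shares was 9.16% and 8.75% in BD1del spermatocytes. It was 8.75% and 7.61% for wild-type round spermatids, and 4.69% and 2.83% for wild-type spermatocytes.

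Most members had no counterpart in any other list. Of the 75062 members 66846 (89.1%, 88.8 to 89.3%) shared no base with an island of the other 3 lists, and 8216 (10.9%, 10.7 to 11.2%) met at least 1. Every island starts on the same grid of windows, so the matching background is the share of windows that a list covers. At least 1 of the other lists covered 12.1% of all windows of the autosomal span. It covered 10.9% of the windows that lie over 600 bases from any longer BD1del round spermatid island, where a member can be called. The share of members met was thus below that of all windows. It was the same as that of windows away from longer islands, to the precision given. The other lists are set against all windows only. The 200-base islands of BD1del spermatocytes met at least 1 of their other 3 lists in 13.2% (12.5 to 13.9%) of cases, against 11.5% of all windows. Those of wild-type round spermatids did so in 26.1% (24.9 to 27.3%), against 13.4%, and those of wild-type spermatocytes in 70.4% (67.2 to 73.5%), against 14.7%.

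List by list, the members' shares lay below those of all windows for both wild-type lists and above for BD1del spermatocytes. Wild-type spermatocyte islands covered 2.01% (1.92 to 2.12%) of the members, against 3.46% of all windows and 2.76% of windows away from longer islands. Wild-type round spermatid islands covered 3.96% (3.83 to 4.11%), against 4.83% and 4.13%, the second of which is close to the members' share. BD1del spermatocyte islands covered 6.70% (6.53 to 6.89%), against 6.18% and 5.44%. The members covered were 1512, 2976 and 5032 in this order. Among the 8130 members with at least 26 ChIP reads the 3 shares were 3.69% (3.29 to 4.12%), 5.74% (5.25 to 6.27%) and 8.62% (8.02 to 9.25%). Wild-type round spermatids were then above the share of all windows, and wild-type spermatocytes no longer differed from it beyond counting error. All 3 shares were above those of windows away from longer islands (2.76%, 4.13% and 5.44%). Relative to all windows of the same chromosome, the share in wild-type spermatocytes was below 1 on 19 of 19 chromosomes (0.371 to 0.935 times). In wild-type round spermatids it was below on 15 (0.599 to 1.06 times over all 19) and in BD1del spermatocytes on 2 (0.678 to 1.33 times). Over the whole autosomal span the ratios were 0.583 for wild-type spermatocytes, 0.821 for wild-type round spermatids and 1.09 for BD1del spermatocytes. For the 200-base islands of the other lists, every such ratio was above 1. It ran from 3.34 to 12.1 for those of wild-type spermatocytes, from 1.69 to 3.54 for wild-type round spermatids and from 1.02, within counting error of 1, to 1.47 for BD1del spermatocytes. The highest, 12.1, was the coverage of wild-type spermatocyte islands by the wild-type round spermatid list (58.6%).

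Longer islands of the BD1del round spermatid list met the other lists more often than members did, window by window. Wild-type spermatocyte islands covered 4.96% of the windows in islands of 400 bases, 4.65% in islands of 1000 bases, 31.4% in islands of 2200 to 5000 bases and 69.3% in islands over 5000 bases. For BD1del spermatocytes the same values were 9.0%, 8.81%, 32.2% and 78.1%.

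Around the members, coverage by the other lists had a narrow rise on a broad dip. Wild-type spermatocyte islands covered 2.01% at the member itself, 1.73% in each adjacent window and 2.60% at 5 kb on the side of lower coordinates. BD1del spermatocyte islands covered 6.70% at the member, 6.02% and 6.08% in the adjacent windows and 5.60 to 6.11% between 1 and 5 kb away. For wild-type round spermatids the values were 3.96%, 3.56% and 3.59%, and 3.55 to 4.44%. In all 3 lists the member itself stood above both adjacent windows, by less than 1 percentage point. Longer islands of the same list are absent within 800 bases of a member by construction and covered 5.56% of windows, together with other members, at 5 kb. At 200-base islands of BD1del spermatocytes the rise was also small, with coverage by wild-type round spermatids of 5.79%, and 4.73% and 4.46% in the adjacent windows. At 200-base islands of wild-type spermatocytes, in contrast, coverage by wild-type round spermatids dropped from 58.6% to 26.4% and 22.3% in the adjacent windows.

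**Figure D4:**
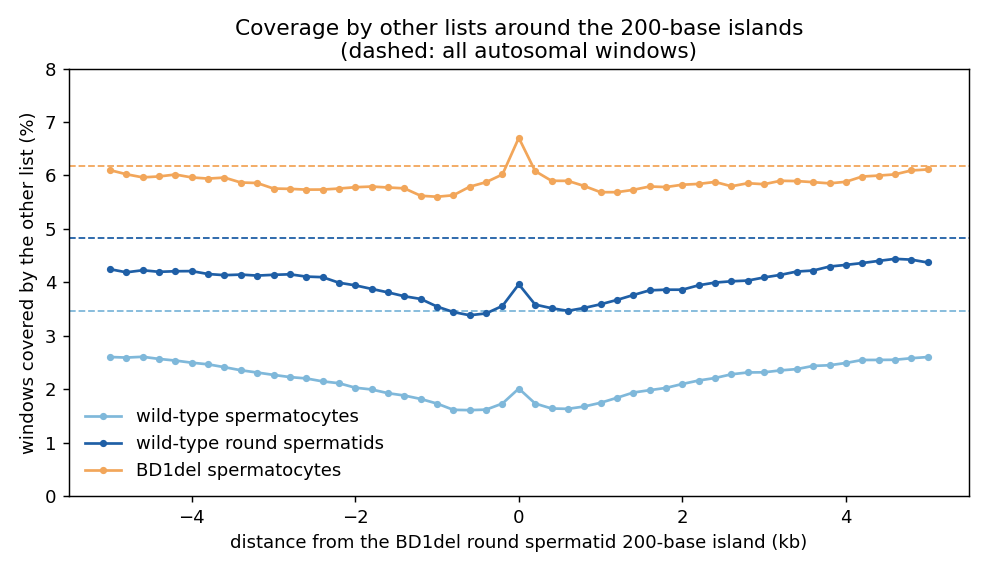
Share of windows covered by each of the other 3 lists (y axis, percent) by distance in kb from the BD1del round spermatid 200-base islands (x axis), with the share of all autosomal windows as dashed lines. Both wild-type lines stay below their dashed lines of 3.46% and 4.83%, and the BD1del spermatocyte line is above its line of 6.18% at the island only.

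The other lists covered members with many reads more often. Wild-type round spermatid islands covered 3.76% (3.46 to 4.09%) of the members with 17 ChIP reads, 4.55% (4.09 to 5.05%) with 25 to 29, 9.22% (6.39 to 12.8%) with 40 to 49 and 36.9% (26.6 to 48.1%) of the 84 with 50 or more. In BD1del spermatocytes the share went from 6.17% (5.79 to 6.58%) at 17 reads to 39.3% (28.8 to 50.5%) at 50 or more, and in wild-type spermatocytes from 1.93% (1.71 to 2.17%) to 27.4% (18.2 to 38.2%). Up to 24 ChIP reads the intervals of the classes overlapped in each list. Of all windows, wild-type round spermatid islands covered 4.83%, BD1del spermatocyte islands 6.18% and wild-type spermatocyte islands 3.46%. Away from longer islands these were 4.13%, 5.44% and 2.76%. At 17 reads no share of members was above that of all windows. Set against windows away from longer islands, the share at 17 reads was above for BD1del spermatocytes and below for both wild-type lists.

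**Figure D5:**
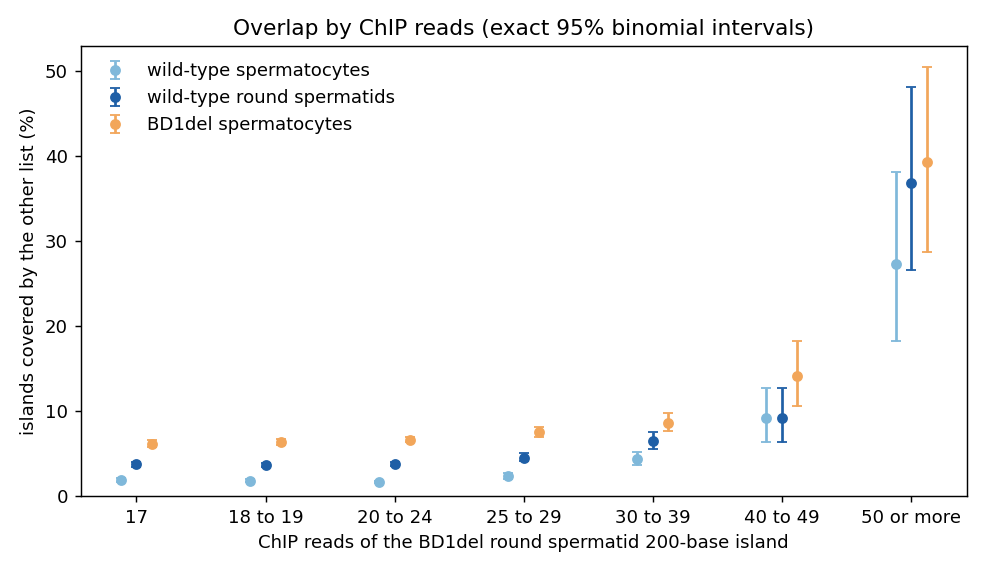
Share of BD1del round spermatid 200-base islands covered by each other list (y axis, percent) by the ChIP reads of the island (x axis), with exact 95% binomial intervals as error bars. Shares are flat up to 24 reads and reach 27.4 to 39.3% in the 84 islands with 50 reads or more. The shares of all windows, not drawn, are 3.46% (wild-type spermatocytes), 4.83% (wild-type round spermatids) and 6.18% (BD1del spermatocytes).

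The overlap also moved with the control reads of the members. At least 1 other list met 8.87% (7.06 to 11.0%) of members without control reads and 9.50% (8.99 to 10.0%) with 1 to 4. The share was 12.5% (11.8 to 13.2%) with 15 to 19 control reads, 21.9% (20.3 to 23.6%) with 20 to 29 and 76.6% (71.4 to 81.2%) in the 303 members with 30 or more. By fold the order was the opposite: 28.0% (25.9 to 30.1%) of members with a fold under 5 met another list, against 8.81% (7.96 to 9.71%) with a fold of 50 or more. At least 1 other list covered 12.1% of all windows and 10.9% of those away from longer islands. Members with 1 to 4 control reads lay below both shares, and so did the 29925 members with 5 to 9, at 9.91% (9.58 to 10.3%). With 10 to 14 control reads the share was 10.5% (10.1 to 11.0%), below that of all windows only. The part of control reads in the overlap was not tested.

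Members met by all 3 other lists were rich in control reads. They numbered 237 (0.316%, against 0.404% of all windows), with medians of 25 ChIP and 28 control reads and a median fold of 5.31. Members met by no other list had medians of 20 and 9 and a fold of 13.2. Exactly 1 list met 9.52% of the members, against 10.1% of all windows. Of these members, 4431 met BD1del spermatocytes alone, 2028 wild-type round spermatids alone and 690 wild-type spermatocytes alone. In the same order the lists covered 6.18%, 4.83% and 3.46% of all windows. Exactly 2 lists met 1.11% of the members, against 1.60% of all windows, and for 466 members these were both wild-type lists. The islands that members met had median lengths of 2600, 1800 and 1600 bases in the wild-type spermatocyte, wild-type round spermatid and BD1del spermatocyte lists. All islands of these lists had medians of 2200, 1400 and 1200 bases. A longer island covers more windows and is met more often by any set of windows, so the longer medians are no trait of the members.

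In under 1% of members was the identical single window an island in another list, but that was more often than over all windows. It was one in 195 members for BD1del spermatocytes (0.260% of the members and 2.11% of the 200-base islands of that list). The same held for 172 members in the wild-type round spermatid list (0.229% and 3.29%). For wild-type spermatocytes it held for 89 (0.119% and 10.4%). Of all autosomal windows, 0.0766%, 0.0434% and 0.00706% were 200-base islands of these lists, and 0.622% were members. The members' shares were 3.39, 5.29 and 16.8 times these. Between the 200-base islands of the other lists the same ratio was higher. It was 484.6 for wild-type spermatocytes with wild-type round spermatids and 58.19 for wild-type with BD1del spermatocytes. For wild-type round spermatids with BD1del spermatocytes it was 11.96. With each other list, the members thus had the lowest ratio. The largest value this ratio can take falls as a set grows, and the members are the largest set, so this rank depends on size. Members matched 10.4% of the wild-type spermatocyte islands of 200 bases, against 21.0% for wild-type round spermatids and 4.46% for BD1del spermatocytes. Of those of BD1del spermatocytes they matched 2.11%, against 0.519% for wild-type round spermatids and 0.411% for wild-type spermatocytes. These shares depend on size too. In 10 windows all 4 lists had a 200-base island. The 5 of lowest deposited p were chr19:51974801-51975000, chr2:46081201-46081400, chr8:107976601-107976800, chr1:62822401-62822600 and chr18:89542601-89542800. The first had 58 ChIP and 60 control reads in BD1del round spermatids and 45 and 52 in BD1del spermatocytes. In wild type it had 33 and 78 (round spermatids) or 52 and 66 (spermatocytes). Its control counts stood far above the median of 9 control reads in all members. The one on chromosome 1 was closer to a typical member, with 21 ChIP and 11 control reads and a fold of 10.4.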

How the data were processed

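Anti-Brdt ChIP and input libraries were made from 8 samples, 1 per group. Per the submitters' processing notes, SICER called the islands, in mm9 coordinates. The labels of the lists give window (200 bases), gap (600 bases) and read set. Aligner, duplicate handling and the input used for each list are not given in the sources used here. ChIP and control counts per island are raw whole numbers deposited by the authors. The p-value, its FDR and the fold (ratio of ChIP reads to depth-scaled control reads) are also as deposited by the authors, and were used to describe islands within a list. The depth of whole libraries is not given in the sources used here, and only the ratio of control to ChIP depth follows from the deposited folds. Reads inside autosomal islands summed to 4408044, 3684584, 5398790 and 6443453 ChIP reads and 4683073, 5763558, 8632837 and 6850898 control reads in wild-type spermatocytes, wild-type round spermatids, BD1del spermatocytes and BD1del round spermatids.

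Coordinates are 1-based. On each chromosome the autosomal span ran between the outermost islands of the 4 lists. Windows in it without usable reads count as not covered. Shares, medians, gaps and overlaps (at least 1 base) were computed with pandas 2.3.3, numpy 2.4.6 and scipy 1.17.1, and the code was checked on simulated data. Members, comparisons and alternatives were chosen with earlier results of these data known. Named members were those with most ChIP reads, most control reads, highest fold with at least 5 control reads, the most common counts, or a 200-base island in every list. Named bins held the most or fewest members. The windows away from longer islands, the classes of reads and fold, and the bins with few members beyond the 5 named by rule were chosen after the data were seen. Intervals ignore that reads and islands are not independent.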

Additional observations from a re-analysis of the deposited data

How the results depend on the processing

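Of 62 alternative values for 13 results, 16 stayed within the counting interval of the reported value and 46 moved outside it, which is narrow at this number of islands. With islands of at most 400 bases the shares of the lists were 8.12% (wild-type spermatocytes), 14.1% (wild-type round spermatids), 16.5% (BD1del spermatocytes) and 51.2% (BD1del round spermatids). In the same order, they were 4.17%, 17.6%, 12.9% and 45.7% with an FDR of at most 1e-10. With at least 26 ChIP reads, chosen after the data were seen, the last 3 were 1.23%, 2.54% and 7.91%. Without the densely covered bins they were 3.18% and 8.06% in wild type and 39.7% in BD1del round spermatids, and with at least 1 control read 7.45% in wild-type and 39.1% in BD1del round spermatids. BD1del round spermatids had the highest share under every one of these alternatives.

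Members of up to 400 bases had medians of 21 ChIP and 10 control reads, with 0.903% free of control reads. At an FDR of at most 1e-10 the control median was 8 reads, 1.27% had none and the median gap was 23.2 kb. The nearest member on either side lay at a median of 10.8 kb.

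The shares of members covered, in the order wild-type spermatocytes, then wild-type round spermatids, then BD1del spermatocytes, were 1.79%, 3.69% and 6.41% at a member FDR of at most 1e-10, 0.682%, 1.16% and 3.81% with the other list at that FDR (all windows 0.904%, 1.22% and 3.58%), 2.25%, 4.80% and 8.28% within 200 bases (3.94%, 5.96% and 7.92%) and 3.52%, 8.51% and 14.7% within 1000 bases (5.80%, 10.3% and 14.6%). Within 1000 bases BD1del spermatocytes no longer stood apart from all windows. Without dense bins the wild-type shares were 1.64% and 3.68% (2.80% and 4.37%). Among the 8130 members with at least 26 ChIP reads the shares were 3.69%, 5.74% and 8.62%, against 3.46%, 4.83% and 6.18% of all windows. The interval of the first, 3.29 to 4.12%, includes its share of all windows, and the second turned from below to above. Of windows away from longer islands 2.76%, 4.13% and 5.44% were covered, and all 3 shares of members lay above these. Members met by no other list were 89.5% at a member FDR of at most 1e-10, 94.7% with the other lists at that FDR, 86.7% and 77.0% within 200 and 1000 bases, 89.5% without dense bins and 86.3% with at least 26 ChIP reads. The matching shares of all windows were 87.9%, 94.7%, 85.2%, 75.1%, 88.7% and 87.9%. The cause of these shifts was not tested. The planned check of sequence composition was not run, since no genome of this build was used here.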

Other observations

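The sex chromosomes, which the choice of members leaves out, also held 200-base islands. In BD1del round spermatids X held 2926 of them, 27.4% of its islands and 17.9 per Mb, against 31.1 per Mb on the autosomes. They had medians of 20 ChIP and 6 control reads, and 23.3% (21.8 to 24.9%) met an island of another list, against 20.5% of all windows on X. The same share on X was 52.9% (48.8 to 57.0%) in BD1del spermatocytes, 70.5% (67.4 to 73.5%) in wild-type round spermatids and 86.7% (83.5 to 89.5%) in wild-type spermatocytes, against 20.5%, 21.2% and 16.1% of the windows. The 61 islands of 200 bases on Y in BD1del round spermatids had medians of 29 ChIP and 31 control reads, and 80.3% (68.2 to 89.4%) met another list, against 54.0% of the windows on Y.

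With the same floor of at least 26 ChIP reads in every list, 13.7% (12.9 to 14.4%) of the 8130 BD1del round spermatid islands of 200 bases on autosomes met another list. The share was 16.3% (14.9 to 17.9%) of 2485 in BD1del spermatocytes, 52.7% (48.9 to 56.5%) of 687 in wild-type round spermatids and 70.4% (67.2 to 73.5%) of 852 in wild-type spermatocytes. In the same order, the other lists covered 12.1%, 11.5%, 13.4% and 14.7% of all windows. For BD1del round spermatids they covered 10.9% of windows away from longer islands. Median control reads were 9, 11, 17 and 21 in this order. The floor is a count of raw reads, not scaled to library depth, and it removed no 200-base island of wild-type spermatocytes. Genotype and read set differ together here, so neither can be told apart from the other.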
